A study of Danio rerio with 4 samples.

Results

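The Hox genes are the 48 rows of the expression table whose symbol names one of the zebrafish Hox clusters A to D, a paralogue group number and the copy letter a or b, out of 27472 rows in all. They were taken by symbol alone and fill 7 clusters (written here hoxaa, hoxab, hoxba, hoxbb, hoxca, hoxcb and hoxda) and all 13 paralogue groups. Each symbol occurs in a single row, and hoxa4a is not analysed here. RNA came from zebrafish (Danio rerio) of strain AB at 72 hours post fertilization (hpf), and the labels name no dissected tissue, mutant or transgene. Treatment began at 4 hpf: the control fish received dimethyl sulfoxide (DMSO, a solvent), and the others received bisphenol C (BPC, an analogue of bisphenol A) at 4 µM. There were 2 DMSO and 2 BPC libraries, carrying the numbers 1 and 3, and how many larvae or clutches each pools is not stated. Any p-value here thus rests on the spread between libraries that may be technical repeats. The comparison asks which transcripts differ with BPC, and here it is read along the Hox clusters.

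Hox genes encode homeodomain transcription factors that give cells their position along the body axis. Within a cluster the genes lie in the order in which they are used from hindbrain to tail, so that low group numbers act in the hindbrain and pharyngeal arches and high numbers in the trunk, tail and fins. Zebrafish have more clusters than mammals because an ancestral fish genome doubled, which left several groups with an a copy and a b copy. Hox proteins bind DNA with cofactors of the Pbx and Meis families, and retinoic acid, Cdx factors and Polycomb proteins are known regulators of the clusters.

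All 48 Hox genes were detected and tested. Values are FPKM, that is, fragment numbers corrected for transcript length and library size, which allow levels of different genes to be compared per length. The mean level in DMSO larvae ran from 0.539 FPKM for hoxc13b to 17.0 FPKM for hoxc8a, with a median of 4.87, and 9 genes were at 10 FPKM or more. Groups 5 to 8, the central genes, had the highest summed level in DMSO (113 FPKM), followed by groups 9 to 13, the posterior genes (96.3 FPKM), and by groups 1 to 4, the anterior genes (77.1 FPKM). The hoxca and hoxba clusters carried most of the sum, with 88.6 and 82.3 FPKM, and hoxcb carried the least, with 6.62 FPKM. The filter on low values removed no Hox gene. All 4 libraries were at 0.5 FPKM or more for 46 of them, and hoxa11a and hoxc13b each had a single DMSO library below that value; neither was called.

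**Figure D1:**
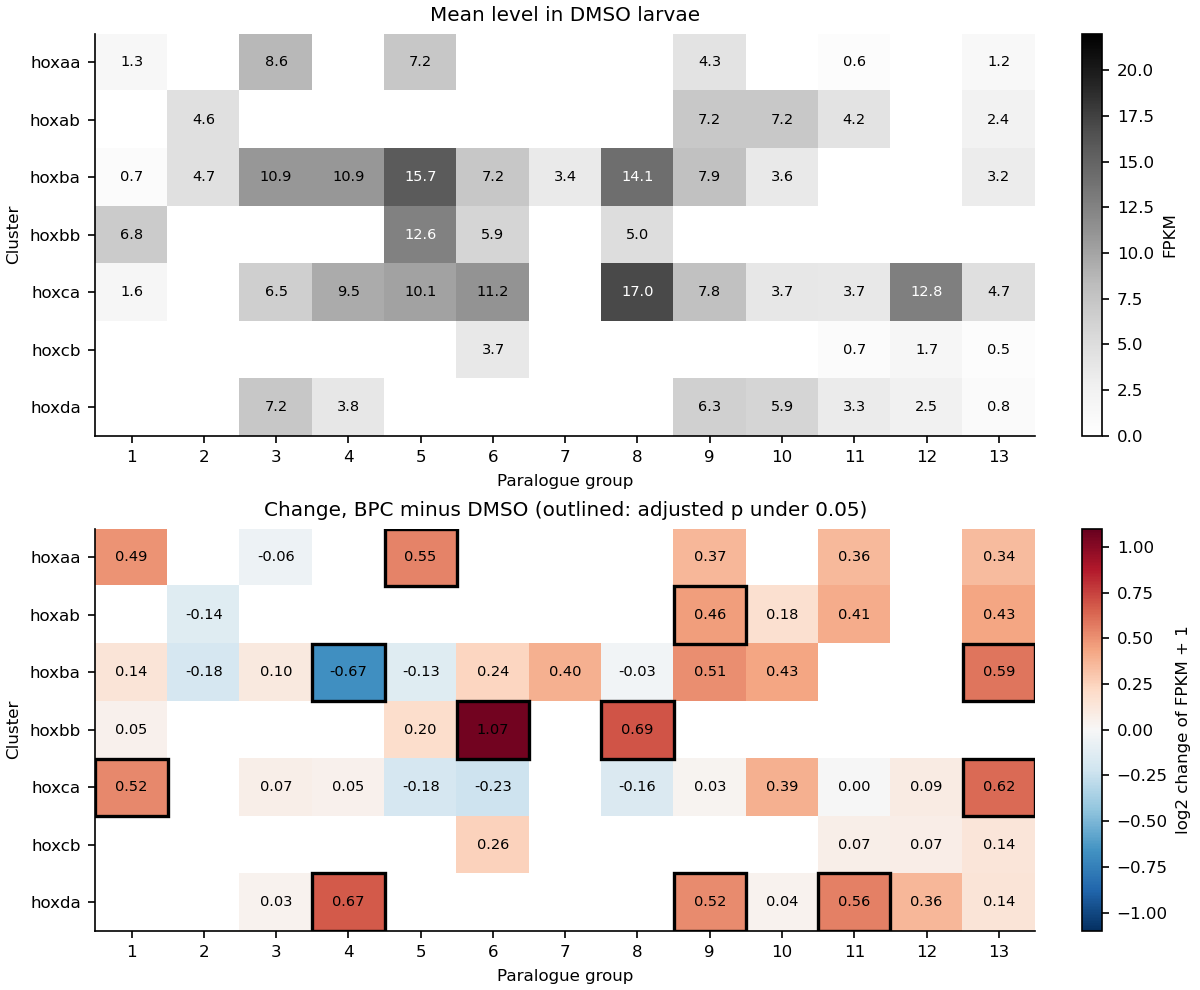
Mean FPKM in DMSO (top) and log2 change of FPKM + 1, BPC minus DMSO (bottom), for each Hox gene by cluster (rows) and paralogue group (columns); blank cells have no gene in the table, and outlined cells passed an adjusted p of 0.05 in limma. The changes above 0 fill most of groups 9 to 13, and hoxb4a, at -0.67, is the outlined cell below 0.

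In BPC larvae 10 Hox genes rose and 1 fell in the test across all genes (limma, adjusted p under 0.05), which is 20.8% and 2.08% of the 48. Over all 19873 genes tested, 7.06% were called higher and 17.5% lower, 24.6% together. The 10 that rose were hoxa5a, hoxa9b, hoxb6b, hoxb8b, hoxb13a, hoxc1a, hoxc13a, hoxd4a, hoxd9a and hoxd11a, with log2 changes of FPKM + 1 from 0.46 to 1.07; the gene that fell was hoxb4a. The median log2 change of the 48 was 0.19, against -0.12 for all genes tested. Set against the DMSO mean, the Hox median was -0.09 and 0.09 in the 2 DMSO libraries and 0.25 and 0.18 in the 2 BPC libraries. Some of the smaller gene lists described further on had higher medians than the Hox genes. These were 0.27 in branchial arch and neural crest markers, 0.26 in pectoral fin markers and 0.23 in even-skipped and ParaHox genes. The remaining lists were lower, from -0.85 (intestine) to 0.07 (tail bud). An upward shift was thus not particular to the Hox genes, and the Hox shift was not tested against those of the lists. Counts depend on how libraries are scaled: 15 rose and 0 fell with median centring, 16 and 1 with quantile normalization, and 3 and 5 with scaling to a common total (TPM). TPM scaling moved the median of all genes from -0.12 to -0.36, and the Hox median lay 0.30 above the all-gene median as deposited, 0.37 above it with quantile normalization and 0.40 above it with TPM. It lay 0.26 above with no filter and 0.20 above without DMSO replicate 1, where the Hox median itself was 0.084. Without DMSO replicate 1 the counts were 1 higher and 0 lower, and without DMSO replicate 3 they were 2 and 0, with hoxb6b called in both cases and hoxb8b in the latter. Over all genes, 329 were higher and 675 lower without DMSO replicate 1, and 411 and 892 without DMSO replicate 3. Without BPC replicate 1 the Hox counts were 5 and 1.

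The library totals, by which TPM scaling divides, were 355583 and 355364 FPKM in DMSO and 422245 and 425611 in BPC. The summed Hox level was 267 and 307 FPKM in DMSO and 346 and 317 in BPC. Per 1000000 FPKM of the library total it was 750 and 863 in DMSO and 820 and 746 in BPC, and the groups overlapped. In bulk RNA, more cells that use a gene and more RNA per cell cannot be told apart.

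**Figure D2:**
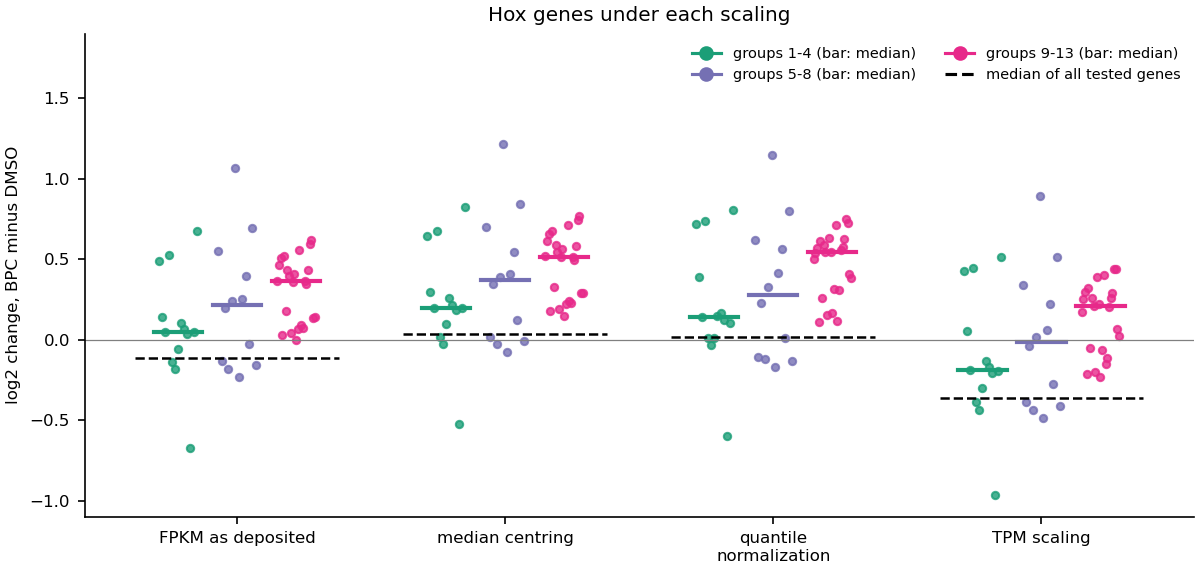
Log2 change (BPC minus DMSO, of FPKM + 1 or, for TPM scaling, TPM + 1) of each Hox gene under 4 scalings, with anterior, central and posterior genes in columns and bars at their medians; the dashed line is the median of all tested genes. The posterior median is above the anterior median in each scaling, at 0.36 and 0.05 as deposited and at 0.21 and -0.19 with TPM.

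The largest change was that of hoxb6b, a central gene of the hoxbb cluster. The DMSO libraries held 5.36 and 6.42 FPKM, the BPC libraries 13.1 and 13.7. Both BPC libraries lay above both DMSO libraries, and the mean rose: 5.89 ± 0.752 FPKM in DMSO, 13.4 ± 0.435 in BPC (SD, n = 2; log2 change 1.07, SE 0.12, limma adjusted p = 0.00417). This was the one Hox call kept under each of the 12 alternatives, with log2 changes from 0.89 to 1.22 and adjusted p from 0.00236 to 0.0272. In the authors' deposited table it was also the one Hox gene marked significant (ratio 2.27, q = 4.7e-09), a mark given to 1.94% of all rows with a ratio above 1 and 6.44% with a ratio below 1. In that table the mark goes with a log2 ratio of at least 1 in size.

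Its cluster neighbour hoxb8b had 4.61 and 5.41 FPKM in DMSO against 8.79 and 8.58 in BPC. The groups did not overlap (log2 change 0.69, SE 0.12, limma adjusted p = 0.0125), and leaving out DMSO replicate 1 ended the call (adjusted p = 0.109). The other members of hoxbb were not called: hoxb5b, known in zebrafish for a role in vagal neural crest, was at 11.6 and 13.7 against 14.4 and 14.8 FPKM. The hindbrain gene hoxb1b was at 6.57 and 7.04 against 7.75 and 6.41 FPKM, with overlapping groups. Of the genes on the duplicate cluster hoxba, hoxb6a (5.65 and 8.8 against 7.9 and 9.22 FPKM) and hoxb8a (11.6 and 16.6 against 13.4 and 13.9) overlapped between groups.

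Ratios of FPKM within a library are not changed by multiplying a library by a constant, as TPM scaling does, though quantile normalization can change them. By this measure 3 of the 4 hoxb duplicate pairs differed between the groups without overlap, and 6 of all 11 duplicate pairs did. No such share was computed over pairs of other genes, so neither count can be read as an excess. Among single genes, 23.0% of all tested lay higher and 45.1% lower in BPC without overlap. The hoxb6 and hoxb8 ratios contain the called genes hoxb6b and hoxb8b and are not separate from those calls. The FPKM ratio of hoxb6a to hoxb6b was 1.06 and 1.37 in DMSO and 0.604 and 0.674 in BPC. The ratio of hoxb8a to hoxb8b was 2.52 and 3.08 against 1.53 and 1.62, and that of hoxb5a to hoxb5b was 1.26 and 1.23 against 0.976 and 0.973. In these 3 pairs the share of the b copy was larger in BPC than in DMSO. In the fourth pair, hoxb1, the ratio was 0.0857 and 0.119 in DMSO and 0.127 and 0.119 in BPC, with overlap. The summed level of hoxbb over that of hoxba was 0.37 ± 0.0167 in DMSO and 0.505 ± 0.0148 in BPC (SD, n = 2). With 2 libraries against 2 an exact permutation test of a single value cannot go below p = 0.333, so these ratios are given as a description.

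**Figure D3:**
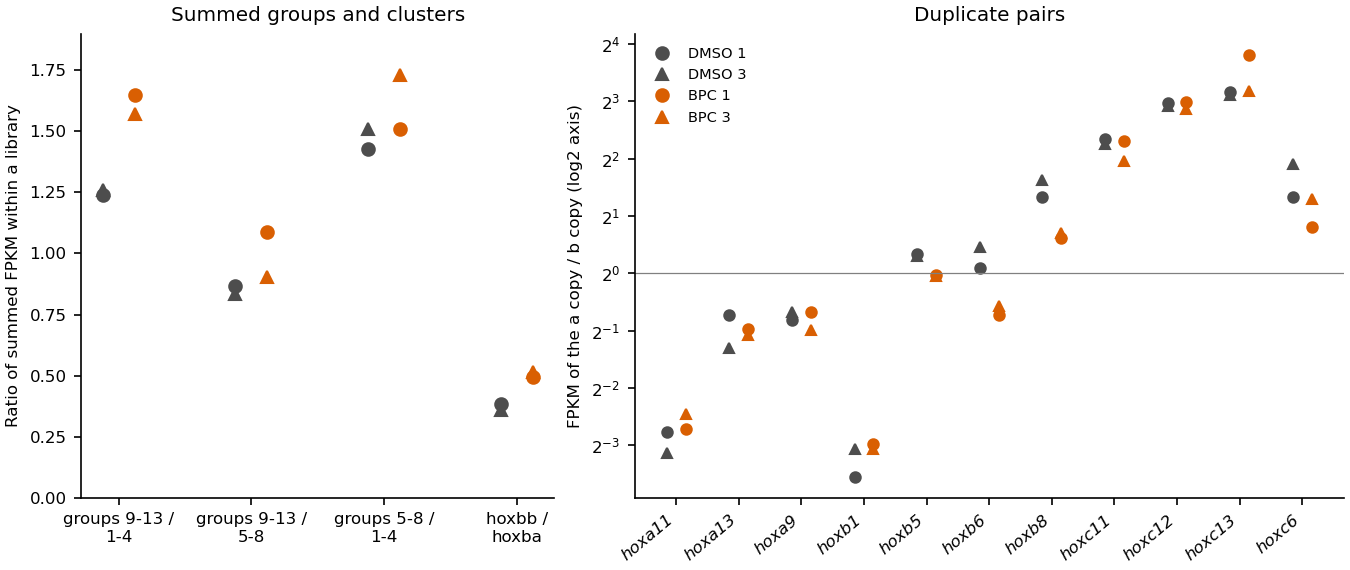
Left, ratios of summed FPKM within each library for paralogue groups 9-13, 5-8 and 1-4 and for the clusters hoxbb and hoxba. Right, FPKM of the a copy over that of the b copy for the 11 duplicate pairs on a log2 axis; circles are libraries numbered 1 and triangles those numbered 3. For hoxb5, hoxb6 and hoxb8 both BPC points lie below both DMSO points.

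Among the 11 duplicate pairs, the a copy had the higher DMSO level in 7. The hoxc6 ratio of a to b was 2.5 and 3.76 in DMSO and 1.75 and 2.44 in BPC, without overlap, and hoxc6b is a low gene (3.67 ± 0.614 FPKM in DMSO). The hoxc13 ratio was 8.97 and 8.62 against 14.0 and 9.05. The hoxa11 ratio was 0.147 and 0.114 against 0.152 and 0.182. The hoxc13 and hoxa11 ratios did not overlap either, but in them the share of the a copy was larger in BPC than in DMSO. Both rest on a gene near the filter of 0.5 FPKM. In DMSO hoxc13b was at 0.468 and 0.61 FPKM and hoxa11a at 0.617 and 0.482. The hoxc13 groups were parted only by 8.97 in DMSO against 9.05 in BPC. The hoxa11 groups were parted only by 0.147 against 0.152, and the hoxc6 groups only by 2.5 against 2.44. The hoxa9, hoxa13, hoxb1, hoxc11 and hoxc12 ratios overlapped between the groups.

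Paralogue group 4 held a rise and a fall. The gene hoxb4a, which in zebrafish marks the posterior hindbrain and spinal cord, had 10.3 and 11.4 FPKM in DMSO against 7.53 and 5.45 in BPC. Both BPC libraries lay below both DMSO libraries, and the mean fell: 10.9 ± 0.731 FPKM in DMSO, 6.49 ± 1.47 in BPC (SD, n = 2; log2 change -0.67, SE 0.16, limma adjusted p = 0.0278). The call was lost with median centring (adjusted p = 0.0588), with no filter (0.0707) and without DMSO replicate 1 (0.0961) or DMSO replicate 3 (0.137). In the authors' deposited table hoxb4a had q = 0.0632.

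The paralogue hoxd4a moved the other way, from 3.66 and 3.99 FPKM in DMSO to 7.05 and 6.36 in BPC (log2 change 0.67, SE 0.12, limma adjusted p = 0.0135). The libraries did not overlap, and the call ended without DMSO replicate 1 (0.108) or without DMSO replicate 3 (0.0662). The ratio of hoxd4a to hoxb4a within a library was 0.354 and 0.351 in DMSO and 0.936 and 1.17 in BPC. The paralogue of the hoxca cluster, hoxc4a, had 9.18 and 9.85 FPKM in DMSO against 9.63 and 10.1 in BPC, and its groups overlapped.

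The remaining anterior genes included a call in group 1 only. The gene hoxc1a rose from 1.55 and 1.56 FPKM to 2.82 and 2.55 (log2 change 0.52, SE 0.13, limma adjusted p = 0.0318; 0.0712 with TPM scaling, 0.0696 with no filter, and 0.187, 0.174 and 0.0692 when DMSO replicate 1, DMSO replicate 3 or BPC replicate 1 was left out), and hoxa1a was at 1.14 and 1.53 against 2.46 and 2.08 FPKM (adjusted p = 0.0587). Both genes had non-overlapping groups at low levels. Groups 2 and 3 had no call. The group 2 gene hoxa2b, which in zebrafish gives the second pharyngeal arch its identity, was at 4.32 and 4.87 against 3.52 and 4.71 FPKM. The highest member of group 2, hoxb2a, was at 4.32 and 5.09 against 4.38 and 3.69, and that of group 3, hoxb3a, at 10.0 and 11.8 against 12.9 and 10.7, all with overlap.

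Of the 12 central genes, 3 rose, namely hoxa5a, hoxb6b and hoxb8b, and none was called lower with the values as deposited. The gene hoxa5a had 7.25 and 7.23 FPKM in DMSO against 10.2 and 12 in BPC (log2 change 0.55, SE 0.12, limma adjusted p = 0.0232), without overlap. This call did not hold with no filter (adjusted p = 0.0502), with TPM scaling (0.0745), or when DMSO replicate 1 (0.139) or DMSO replicate 3 (0.132) was left out. The most abundant Hox genes are in this block and were not called: hoxc8a was at 16.2 and 17.9 against 15.6 and 14.7 FPKM, and hoxb5a at 14.6 and 16.8 against 14.0 and 14.4. In both genes, and in hoxc5a (9.4 and 10.8 against 9.14 and 8.43) and hoxc6a (10.3 and 12.2 against 8.89 and 9.91), the BPC libraries lay below the DMSO libraries. These 4 genes were called lower with TPM scaling, beside hoxb4a, and not with the other scalings. The single member of group 7, hoxb7a, was at 3.07 and 3.68 against 5.27 and 4.25 FPKM (adjusted p = 0.0999), without overlap.

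Of the 23 posterior genes, 5 rose, none fell, and 22 had a log2 change above 0, as did 7494 of all 19873 genes tested. The exception, hoxc11a, was at 3.07 and 4.26 against 3.8 and 3.44 FPKM. With TPM scaling none of the 23 was called. By that scaling hoxa10b, hoxc9a, hoxc11b, hoxc12a, hoxc12b and hoxd10a were below 0 beside hoxc11a. Both BPC libraries lay above both DMSO libraries in 16 of the 23 (69.6%), in 5 of 12 central genes (41.7%) and in 3 of 13 anterior genes (23.1%), against 23.0% of all genes tested. The reverse order was found in 0, 4 and 1 of them, against 45.1% of all genes. These shares are descriptions of genes that share clusters and libraries, and no test was made between the blocks. They were counted on FPKM as deposited, in which the BPC libraries have higher totals, and not with other scalings.

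The posterior calls came from 4 clusters. In hoxab, hoxa9b rose from 7.03 and 7.37 FPKM to 10.8 and 9.81 (limma adjusted p = 0.0311). In hoxda, hoxd9a rose from 5.89 and 6.79 to 10.1 and 8.91 FPKM (adjusted p = 0.0311) and hoxd11a from 3.29 and 3.36 to 5.77 and 4.99 (adjusted p = 0.0258). These are genes of the HoxA and HoxD clusters, whose posterior members are known for patterning the pectoral fin in zebrafish. The libraries of the 2 groups did not overlap for any of these 3. Each of the 3 calls ended without DMSO replicate 1 (adjusted p of 0.217 for hoxa9b, 0.227 for hoxd9a and 0.158 for hoxd11a), without DMSO replicate 3 (0.158, 0.0982 and 0.135) and without BPC replicate 1 (0.0588, 0.0686 and 0.0534). They were also lost with TPM scaling (0.144, 0.111 and 0.0689) and with no filter (0.055, 0.0638 and 0.0573).

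Group 13, the most posterior, was called in hoxb13a and hoxc13a. The first rose from 3.39 and 3.09 FPKM to 4.67 and 6.17 (log2 change 0.59, SE 0.15, limma adjusted p = 0.0365), and the mouse gene of that name limits the growth of the tail. The second rose from 4.2 and 5.26 FPKM to 8.99 and 6.69 (log2 change 0.62, SE 0.17, adjusted p = 0.043), and its mouse counterpart acts in hair and nails. Without DMSO replicate 1 or DMSO replicate 3 the adjusted p was 0.131 or 0.179 for hoxb13a and 0.23 or 0.0778 for hoxc13a. It was 0.0603 for hoxb13a without BPC replicate 3 and 0.104 for hoxc13a without BPC replicate 1. With TPM scaling it was 0.0825 for hoxb13a and 0.105 for hoxc13a, with no filter 0.0828 and 0.0969, and hoxc13a was at 0.054 with a pseudocount of 0.01. Of the other 4 members of group 13, hoxa13a, hoxa13b and hoxc13b had non-overlapping groups and hoxd13a overlapped. The summed group 13 level was 12 and 13.8 FPKM in DMSO and 21.3 and 19.3 in BPC.

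**Figure D4:**
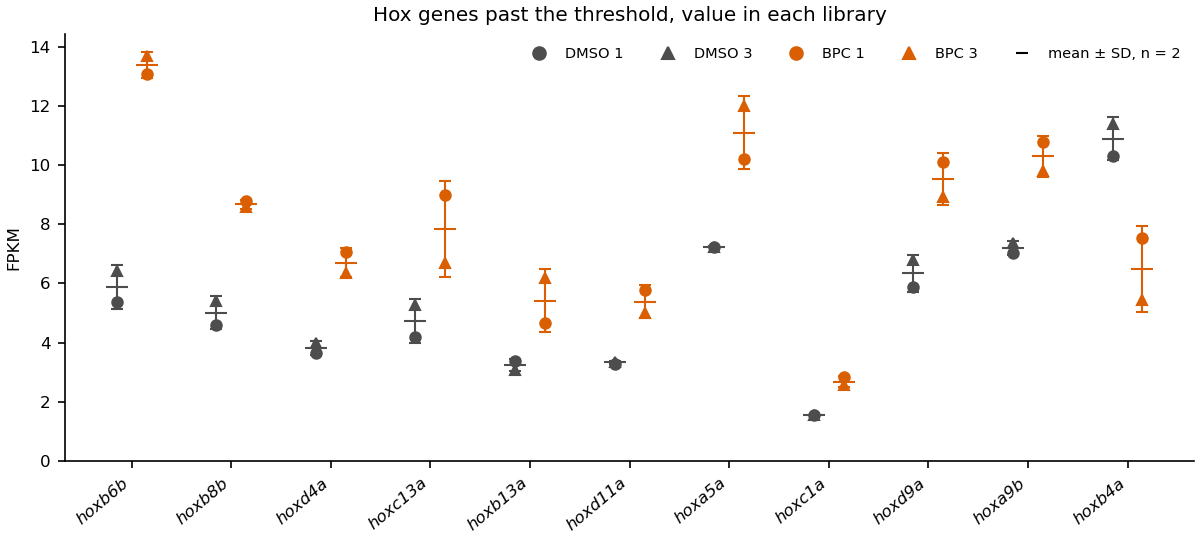
FPKM in each library for the 11 Hox genes past the threshold, ordered by log2 change, with the mean and SD (n = 2) of each group. The DMSO and BPC points do not overlap for any gene, and hoxb4a is the one with BPC below DMSO.

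Other posterior genes did not pass, and some of these had changes close to those of called genes. The highest member of group 9, hoxb9a, was at 6.96 and 8.81 against 12.6 and 10.6 FPKM (log2 change 0.51, adjusted p = 0.0509), and hoxb10a at 3.22 and 3.97 against 5.18 and 5.19 (adjusted p = 0.0605). Of group 10, the highest was hoxa10b at 6.65 and 7.68 against 8.09 and 8.32 FPKM (log2 change 0.18). Of group 11, it was hoxa11b at 4.19 and 4.24 against 7.18 and 4.88 (log2 change 0.41). The abundant group 12 gene hoxc12a, at 12.7 and 12.9 against 15.5 and 12 FPKM, overlapped (log2 change 0.09). Of the 37 Hox genes not called, 28 had a log2 change above 0 and 9 below, from -0.23 to 0.51. Over all 19873 genes tested, called or not, 7494 were above 0 and 12379 below. An unadjusted limma p under 0.05 was found in 7 of the 37. That share was not counted over all genes, so the 7 cannot be read as an excess.

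Within a library, the summed posterior level over the summed anterior level was 1.24 and 1.26 in DMSO and 1.65 and 1.57 in BPC. The ratio of posterior to central was 0.867 and 0.836 against 1.09 and 0.904, and that of central to anterior was 1.43 and 1.51 against 1.51 and 1.73. The posterior-to-anterior ratio differed in this direction without overlap within hoxaa (0.589 and 0.619 against 0.824 and 0.8) and within hoxba (0.538 and 0.546 against 0.869 and 1.07). It overlapped within hoxca (1.86 and 1.86 against 2.13 and 1.82) and within hoxda (1.69 and 1.75 against 2.04 and 1.61). The anterior sum of hoxba includes hoxb4a, the gene called lower. The ratio was not computed within hoxab, which also has anterior and posterior genes. Across the 48 genes, which share libraries and clusters, the group number and the log2 change had a Spearman rho of 0.28. The mean DMSO level and the log2 change had a rho of -0.42 over the same genes, and the median DMSO level was 3.66 FPKM in posterior, 8.67 in central and 6.49 in anterior genes. The part of expression level in the posterior pattern was not tested.

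By cluster, the median log2 change was 0.44 in hoxbb, 0.41 in hoxab, 0.36 in hoxaa and in hoxda, 0.14 in hoxba, 0.10 in hoxcb and 0.05 in hoxca. In hoxca 2 of 11 genes rose, its end members hoxc1a and hoxc13a. In hoxcb, 0 of 4 passed, and its highest gene, hoxc6b, was at 4.1 and 3.24 against 5.09 and 4.06 FPKM. With TPM scaling the medians of hoxca (-0.19) and hoxcb (-0.0016) were below 0 and the others stayed above it.

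Some Hox genes overlap in the annotation. In the RefSeq genes of assembly GRCz12tu, which may not be the build used for these values, 17 of the 48 have a span that overlaps another Hox gene, 4 of the 11 called genes among them. For those 4, the Hox partner was not called. The partner was hoxb1b for hoxb6b and hoxb3a for hoxb4a. It was hoxd3a (6.8 and 7.64 against 6.92 and 7.94 FPKM) for hoxd4a, and hoxa3a (8.68 and 8.5 against 9.57 and 7.06) for hoxa5a. The spans of the hoxaa genes, hoxa5a among them, also overlap that of the even-skipped gene evx1. That gene, not called, had 1.39 and 1.56 FPKM in DMSO against 3.39 and 2.19 in BPC (limma adjusted p = 0.0566). The ratio of hoxb6b to hoxb1b was 0.816 and 0.911 in DMSO and 1.69 and 2.13 in BPC, and that of hoxb4a to hoxb3a was 1.03 and 0.966 against 0.582 and 0.511. The library kit marks strand, per the labels' protocols, but the sources used here do not say whether counting used it or how shared fragments were split.

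The authors' own test, on the same libraries, also called more Hox genes higher than lower. A q under 0.05 in the authors' deposited table went with a ratio above 1 in 14 of the 48 Hox genes and with a ratio below 1 in 0. Over all 27472 rows, which include genes too low for the limma test, the shares were 9.68% and 9.76%. Genes of at least 2 FPKM with p above 0.9 in the authors' test had a median log2 ratio of -0.16. Its point of least difference thus lay below a ratio of 1. All 10 genes that rose in limma were among the 14, and the other 4 were hoxa11b, hoxb9a, hoxb10a and hoxc10a.

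Genes were named from the lists that follow mainly because they were called, so the called share among named genes is set by that choice. Counts under another scaling belong beside the counts over all 19873 genes under that scaling. Those were 759 higher and 7286 lower with TPM scaling, 2441 and 1997 with median centring, and 1948 and 2111 with quantile normalization. Counts on values as deposited within each of these lists can be read against the 7.06% and 17.5% called over all genes. Of the 33 genes named from them 27 were called, and 26 of these had a value without DMSO replicate 1 or DMSO replicate 3: 22 lost the call in the first case and 16 in the second, and none reversed.

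The cofactors of Hox proteins were not called. Of 12 tested genes of the Pbx, Meis and Pknox families, 0 rose and 0 fell in limma, and 1 had an adjusted p just above the threshold, pbx3a (2.95 and 4.06 against 2.05 and 2.08 FPKM, adjusted p = 0.0503, chosen after its value was seen). The most abundant, meis1b, had 60.3 and 65.9 FPKM in DMSO against 61.9 and 68.7 in BPC, and meis2a was at 52.5 and 54.8 against 42.1 and 54.7. With TPM scaling 5 of the 12 were called lower, and with median centring or quantile normalization 0 were called. The median log2 change was -0.11, close to that of all genes.

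Of 14 tested upstream regulators of the clusters, 1 rose and 4 fell, with a median log2 change of 0.01 that was -0.21 with TPM. The counts depended on scaling: 1 and 5 with TPM, 4 and 3 with median centring, and 4 and 2 with quantile normalization. The ParaHox gene cdx1b, which acts in the intestine in zebrafish, fell from 3.17 and 3.23 FPKM to 0.309 and 0.692 (adjusted p = 0.00349). Among regulators of hindbrain segments, hnf1ba fell from 5.88 and 4.69 to 2.37 and 1.95 FPKM (adjusted p = 0.00826). It is also listed below as a pronephros marker. The gene egr2b fell from 1.62 and 2.27 to 0.114 and 0.798 FPKM (adjusted p = 0.0276). That call was lost with a pseudocount of 0.1 (adjusted p = 0.0605). The duplicate egr2a lay higher in BPC, at 0.273 and 0.141 against 0.531 and 0.547 FPKM, without a call (adjusted p = 0.101). The regulator mafba was not called either (adjusted p = 0.206). Of the 14 genes, 5 lay higher in BPC without overlap and 5 lower. The growth factor gene gdf11, which in the mouse sets where posterior Hox genes come on, rose from 0.833 and 1.04 to 2.73 and 1.84 FPKM (adjusted p = 0.0264). For each called gene named here, the libraries did not overlap between groups.

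Of 21 retinoic acid genes, 1 rose and 4 fell (median log2 change -0.14; with TPM scaling 0 rose and 9 fell, and with median centring 3 rose and 1 fell). The receptor genes rargb (4.16 and 2.92 against 1.33 and 1.51 FPKM, adjusted p = 0.0148), raraa (8.52 and 8.29 against 5.34 and 5.7, adjusted p = 0.0209) and rxrab (2.06 and 1.85 against 1.17 and 0.641, adjusted p = 0.0391) were among those that fell. The retinol dehydrogenase gene rdh10b rose from 3.26 and 3.32 to 5.08 and 5.67 FPKM (adjusted p = 0.0222). Of 24 Polycomb and trithorax genes, 2 rose and 1 fell (median 0.01, and -0.22 with TPM scaling, by which 1 rose and 5 fell). With median centring 4 rose and 1 fell, and with quantile normalization also 4 and 1. The Polycomb genes cbx2 (9.08 and 9.27 against 18.3 and 16.0 FPKM, adjusted p = 0.00611) and bmi1b (8.88 and 9.01 against 13.3 and 11.7, adjusted p = 0.0373) rose, and kdm6bb, a demethylase of the Polycomb mark, fell from 28.3 and 28.9 to 17.8 and 20.3 (adjusted p = 0.0162). Of 7 even-skipped and ParaHox genes, 1 fell, which was cdx1b, and 0 rose. Their median log2 change was 0.23, with 5 above 0 and 2 below. With TPM scaling 0 rose and 2 fell, with median centring 1 and 1, and with quantile normalization 2 and 1. Of 10 genes listed as lying beside the clusters, jazf1b fell (8.96 and 9.16 against 4.98 and 5.32 FPKM) and 0 rose.

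Markers of tissues that use Hox genes went different ways, and their part in the Hox values was not tested. Of 9 pectoral fin markers, 1 rose, the fin fold actinodin gene and1 (86.7 and 84.1 against 121 and 130 FPKM), and 0 fell. Their median log2 change was 0.26, and 0.03 with TPM scaling. The log2 change was above 0 in 8 of the 9, and the exception was tbx5a (1.71 and 1.8 against 1.62 and 1.52 FPKM). The summed level was 527 to 537 FPKM in DMSO and 607 to 620 in BPC, with most of it from the actinodin genes and1, and2 and and3. Per 1000000 FPKM of the library total the order was the reverse, with 1480 to 1510 in DMSO and 1440 to 1460 in BPC, and 3 fin markers rose with median centring and 0 with TPM scaling. Of 9 spinal motor neuron markers, 3 fell (chata, slc18a3a and isl1) and 1, mnx2a, rose, and the sum was 82.7 to 84.7 against 63.8 to 70.4 FPKM. With median centring 0 of them fell and with TPM scaling 6 did. Of 13 interneuron markers, 3 fell (slc6a5, gad1b and slc17a6b) and 2 rose, en1b and pax8, with sums of 97.4 to 99.0 and 83.2 to 89.7 FPKM (2 fell and 3 rose with median centring, 5 fell and 1 rose with TPM). Of 5 tested tail bud markers, 1 rose, tbxta (1.07 and 1.38 against 2.14 and 2.41 FPKM), and 0 fell. The log2 change was above 0 in 3 of the 5 and below 0 in 2. Among the latter, tbx6 was at 1.61 and 1.62 against 0.78 and 1.04 FPKM, without a call. The markers her7, msgn1 and tbx16 were too low to be tested, and her1 was listed at 0 in all libraries. The sum was 10.9 to 12.3 FPKM in DMSO and 12 to 13.6 in BPC. With TPM scaling 0 rose and 1 fell, and with median centring 2 rose and 0 fell.

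Of 10 branchial arch and neural crest markers 0 passed with the values as deposited, 3 rose with median centring and 2 fell with TPM scaling. Their median log2 change was 0.27 as deposited and 0.04 with TPM scaling. Their sums were 142 to 151 FPKM in DMSO and 158 to 160 in BPC, but 398 to 426 and 374 to 375 per 1000000 FPKM of the library total. The 2 highest that the rule names were tfap2a (60.4 and 62.6 against 56.9 and 58.2 FPKM) and dlx3b (15.5 and 18.4 against 20.8 and 21.7). Of 10 somite and muscle markers 0 passed (2 fell with quantile normalization and 1 with TPM scaling), with sums of 7640 to 8550 and 6450 to 9260 FPKM; the highest were mylpfa and ckmb. Of 7 pronephros and cloaca markers, hnf1ba and cdh17 fell and pax8 rose, with sums of 39.4 to 42.8 and 28.8 to 33.7 FPKM. With TPM scaling 3 of them fell and 0 rose, and with median centring 2 fell and 2 rose. Of 7 intestine markers, 5 fell, vil1, anpepb, cdx1b and foxa3 first among them, and 0 rose; the sum was 2290 to 2310 against 3020 to 3150 FPKM, because the abundant apoa1a, which was not called, makes up most of it.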

How the data were processed

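The deposited expression table gives 27472 genes with an FPKM value in each library, per the file headers. The authors' comparison table also holds the ratio of the mean FPKM values, its log2, and a p-value and q-value per gene, per the file headers. Tools named in the submitters' processing notes are HISAT2 2.0.4, cutadapt 1.9, edgeR, DESeq2 and StringTie 1.3.4d; their roles are not stated there. The build and the strand setting of the counting are not stated in those sources. Depth is unknown: the files hold no read totals, and low values showed no common step.

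Columns were matched to samples by title (0 left over). limma 3.58.1 in R 4.3.3 was fitted to log2(FPKM + 1), group being the single covariate, with an intensity trend (prior 4.47 degrees of freedom). Testing covered the 19873 genes that reached 0.5 FPKM in 2 or more libraries, and p-values were adjusted over all of them by the Benjamini-Hochberg method, two-sided, threshold 0.05. The added 1 shrinks log2 changes of low genes. The fit was tested on simulated data. Alternatives were pseudocounts, filters, scalings, the replicate block and leaving out each library. The option with no filter left out the 543 genes at 0 in every library.

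Members and lists were chosen with earlier results of these data known. Full values were given for each called Hox gene and for the highest gene of each cluster and paralogue group, other Hox genes being shown as examples; of each other list, up to 4 called genes with the smallest p were named, or the 2 highest where none passed. List symbols were matched by the files' symbols and then by a table of Ensembl IDs. Genes outside this rule are examples chosen after their values were seen.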

Additional observations from a re-analysis of the deposited data

How the results depend on the processing

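Of the 11 Hox calls, all were kept with the replicate number as a block, a pseudocount of 0.1, a filter on the mean over libraries and quantile normalization, and none of the 11 changed sign under any of the 12 alternatives. With the replicate block the counts were 10 higher and 1 lower, as in the main test, and 1333 and 3282 over all genes; the same-numbered libraries did not deviate together (r = 0.008 across genes), so the numbers were not taken as pairs. With no filter, 3 Hox genes were higher and 0 lower (748 and 2020 over all genes). With median centring, 15 and 0 (2441 and 1997), the lost call being hoxb4a, and the Hox median was 0.34. With TPM scaling, 3 and 5 (759 and 7286), median 0.038. With quantile normalization, 16 and 1 (1948 and 2111), median 0.39. A pseudocount of 0.01 gave a Hox median of 0.30 and lost the hoxc13a call (adjusted p = 0.054). Leaving out each library in turn gave 1 to 15 Hox genes higher and 0 to 1 lower, Hox medians from 0.084 to 0.26, and 329 to 2097 higher and 675 to 4146 lower over all genes. With a library left out, the lone library of its group is assumed to vary like the other group. Without BPC replicate 1, 5 Hox genes were higher, and without BPC replicate 3, 15. The 33 named genes outside the Hox clusters, 27 of them called, gave 394 values under the alternatives, of which 87 lost a call (3 with the replicate block, 13 with no filter, 22 without DMSO replicate 1 and 16 without DMSO replicate 3), 4 gained one and 0 changed the sign of a call. With 2 libraries a group and unknown depth, differences of the size seen in hoxb9a or hoxa1a lay at the threshold.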

Other observations

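The genes next to the clusters, chosen after the Hox values were seen, were the 3 nearest coding genes on each side of each cluster in the RefSeq order of GRCz12tu that have a row in the table. Of 39 tested, 2 rose and 9 fell, with a median log2 change of -0.15, against -0.12 for all genes. Over all 19873 genes tested, 7.06% were called higher and 17.5% lower. The neighbour counts depend on scaling: 4 rose and 4 fell with median centring, 3 and 7 with quantile normalization, and 1 and 13 with TPM scaling. Over all genes the counts under these 3 scalings were 2441 and 1997, 1948 and 2111, and 759 and 7286. Beside hoxda, the oxidative stress factor gene nfe2l2a rose from 17.6 and 16.9 to 33.8 and 29.6 FPKM (limma adjusted p = 0.0058), and beside hoxaa the heterochromatin protein gene cbx3a rose from 25.0 and 25.8 to 39.7 and 32.0 (0.0421). Beside hoxcb, nr1d4b fell from 4.63 and 4.31 to 1.93 and 2.16 FPKM (0.00782) and the retinoic acid receptor gene rargb also fell, and beside hoxca nr1d4a fell from 1.57 and 1.2 to 0.42 and 0.642 (0.0294). The even-skipped gene evx2, which lies beside hoxd13a, was at 2.92 and 3.17 against 3.54 and 3.94 FPKM and was not called.

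In the authors' deposited table, the 664 genes with a p-value above 0.9 and a mean of at least 2 FPKM had a median log2 ratio of -0.16 (5th to 95th percentile -0.19 to -0.13). A ratio of 1 in deposited FPKM is thus not the point at which that test finds the least difference. In the authors' deposited table hoxb5a, with a log2 ratio of -0.15, had a q-value of 0.973, and hoxd3a, with 0.04, had a q-value of 0.51.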
